A study of Xenopus laevis with 14 samples.

Results

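Anterior endoderm of Xenopus laevis embryos that had received Ptf1a mRNA was compared with the same tissue from embryos that had received GFP mRNA alone, at stage NF36 of the Nieuwkoop and Faber series, a tailbud stage. The comparison takes 8 of the 14 arrays of the series, 4 from Ptf1a explants and 4 from GFP explants, and every one of the 23614 probe sets with a value on these arrays. The arrays were chosen by their titles, and arrays with the same replicate number were treated as pairs. Ptf1a embryos were given 800 pg of Ptf1a mRNA together with 400 pg of GFP mRNA, and GFP embryos 400 pg of GFP mRNA, in each case into both dorso-vegetal blastomeres at the 8-cell stage. All embryos thus carried GFP mRNA, and Ptf1a embryos carried more mRNA in total. An RNA preparation came from a pool of about 15 dissected explants. Per the labels, control and experimental samples came from the same batch of embryos, and that arrays of a pair share a batch was inferred. The remaining 6 arrays hold the same treatments at NF32, with 3 arrays per group.

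Ptf1a is a basic helix-loop-helix transcription factor that is needed to form the pancreas, where it later drives genes of digestive enzymes in acinar cells. In the nervous system it directs precursors toward inhibitory neurons. Injected mRNA passes to all descendants of the injected blastomeres, so that in such explants the factor is not limited to pancreas cells. The sampled region forms the pancreas and its neighbours along the gut, including liver, stomach and duodenum. The comparison asks which RNAs differ between Ptf1a and GFP explants of this tissue. Effects of Ptf1a and of the larger amount of injected mRNA cannot be told apart here.

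Each array reports 1 intensity per probe set, on a linear scale, and the mean intensity was 100 on every NF36 array. Between 25.4% and 26.7% of probe sets read below 16 in Ptf1a explants and between 26.9% and 27.5% in GFP explants. Changes are given as log2(intensity + 16), Ptf1a minus GFP, ± SE, a scale that understates the change of dim probe sets. The threshold was an adjusted p under 0.05 over all probe sets. In this species, with its duplicated genome, gene symbols end in .L or .S by subgenome, and each copy counts as a gene here. Where nothing else is said, 4 values in a row are replicates 1 to 4. The parents of the pools are not stated. With the pairing, the p-values measure how the difference between Ptf1a and GFP varies over these 4 pairs of pools.

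The endoderm label was checked against marker genes. gata6.S read 354.9 to 409.8 in Ptf1a explants, against 374.2 to 441.5 in GFP explants, and gata4.L read 232.3 to 349.3 in Ptf1a explants, against 221.5 to 358.7 in GFP explants. foxa1.L read 197.1 to 352.1 in Ptf1a explants, against 269.3 to 469.3 in GFP explants. These factors of the gut tube thus read well above 16 on every array, though gata4 also stands in the heart list below. Other markers were dimmer. hhex.L read 14.6 to 32.7 in Ptf1a explants, against 20.7 to 25.7 in GFP explants, and sox17a.L 13.7 to 25.6 against 16.5 to 25.7. The tight junction gene cldn18.L read 0.3 to 5.1 in Ptf1a explants, against 16.5 to 44.1 in GFP explants. The early endoderm gene sox17b.1.L read 5 or less on every array. foxa1.L (-0.42 ± 0.07, adjusted p = 0.0104), foxa1.S (-0.35 ± 0.05), foxa2.L (-0.28 ± 0.06) and hnf4a.S (-0.42 ± 0.09) were lower in Ptf1a explants and gata4.S was higher (0.34 ± 0.07, with no overlap), while gata6.L, gata6.S and gata4.L did not pass the threshold.

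Of the 23614 probe sets, 2977 were higher and 2554 lower in Ptf1a explants, which is 23.4% of all tested. The balance turned with the scaling, to 2578 higher and 3274 lower with median centring and 2582 and 3037 with quantile normalization. At least 2-fold changes were fewer, with 216 probe sets higher (0.915%) and 69 lower (0.292%). The intensities of the groups did not overlap for 3151 probe sets (13.3%). With 1 probe set per gene, 1287 of 9594 genes were higher (13.4%) and 1255 lower (13.1%), together 26.5%, and the counts of gene lists below are to be read against these shares. The lists were written with earlier results of these data known, so a count above these shares is not a test. Of the 1027 list members 41.9% passed. Of the 2542 genes past the threshold, 1235 had no overlap between the groups. Counts of list members without overlap are to be read beside that number. The median change of all probe sets was 0.00. These counts rest on the pairing: without it 848 probe sets were higher and 446 lower, 5.48% of all. Leaving out pair 2 or pair 4 left 1666 and 1735 higher and 1273 and 1178 lower.

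**Figure D1:**
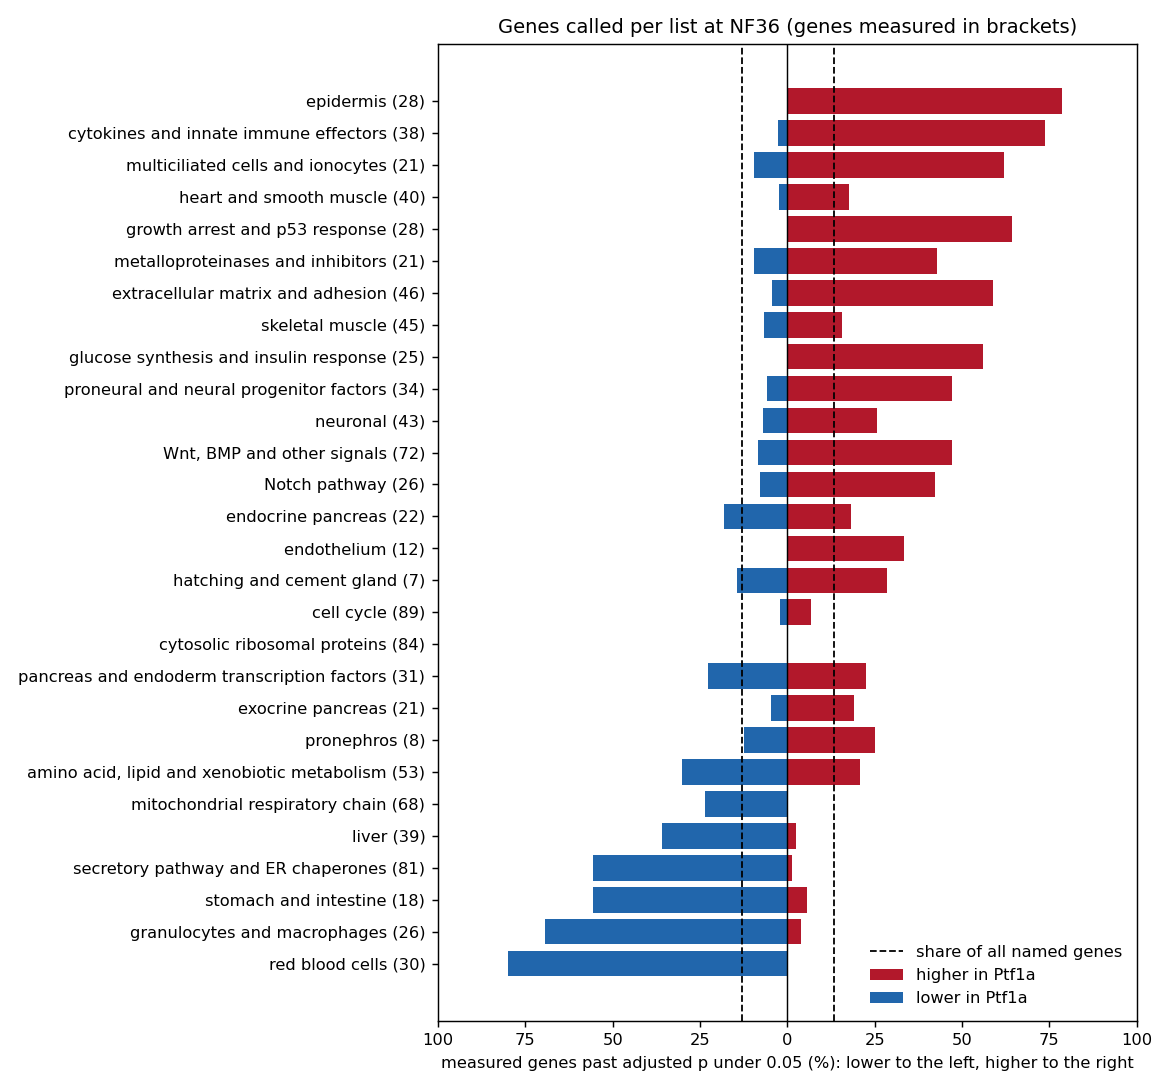
Share of the measured genes of each of 28 lists that passed the threshold at NF36, higher in Ptf1a explants to the right and lower to the left, with the number of genes in brackets. Dashed lines mark the shares over all 9594 genes, 13.4% higher and 13.1% lower; epidermis reached 22 of 28 higher and red blood cells 24 of 30 lower.

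The ptf1a probe set itself read 117.2, 143.1, 319.4 and 136.4 in Ptf1a explants, against 25.5, 33.3, 31.5 and 29.8 in GFP explants. All Ptf1a arrays lay above all GFP arrays, and Ptf1a replicate 3 stood above the other replicates. The change was 1.98 ± 0.19, adjusted p = 0.0019, and it passed without any 1 pair. The probe set may detect injected as well as endogenous RNA, and the labels do not say which.

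Exocrine enzyme genes were at low levels in both groups. Of 21 measured genes of this list 4 were higher and 1 lower (median change -0.01), and 10 had group means below 16 in both groups. The share called either way, 23.8%, was below the 26.5% over all genes. The procarboxypeptidase gene cpa1.L read 22.3, 26.9, 22.4 and 29.9 in Ptf1a explants, against 7.5, 7.8, 5.8 and 12.2 in GFP explants. The groups did not overlap, and no Ptf1a array exceeded 30 (0.77 ± 0.05, adjusted p = 6.18e-04). cpb1.S, another procarboxypeptidase gene, read 71.3, 21.7, 15.2 and 2.5 in Ptf1a explants, against 3.2, 3.4, 0 and 0.4 in GFP explants. Most of that difference lay in Ptf1a replicate 1, and Ptf1a replicate 4 overlapped the GFP arrays (1.07 ± 0.29, adjusted p = 0.04, lost without pair 2 or pair 3). The lipase genes pnlip.L (0.30 ± 0.04) and cel.2.S (0.50 ± 0.11, lost without pair 1 or pair 3) were higher. pnlip.L was below 16 on every array, at 6.9 to 12.9 in Ptf1a explants, against 2.6 to 6.7 in GFP explants. For cel.2.S the groups overlapped. The 1 lower member, cpn1.S (-0.21 ± 0.04, lost without pair 2 or pair 4), encodes a plasma carboxypeptidase rather than a digestive enzyme. The amylase genes amy2a.L (0.04) and amy2b.S (-0.01), the elastase gene cela2a.L (-0.01) and the trypsinogen gene prss1.L (-0.01) did not pass. Without the pairing 1 exocrine gene was higher, and without pair 3 there were 2.

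Among endocrine genes, insulin RNA fell while RNA of the hormone somatostatin and of a proneural factor rose. Which cells held the somatostatin RNA was not tested. Of 22 measured genes 4 were higher and 4 lower (median 0.07), and 12 had means below 16 in both groups. ins.L read 15.5, 18.4, 21.1 and 15.4 in Ptf1a explants, against 67.2, 70, 77.2 and 75 in GFP explants. Every Ptf1a array was far below every GFP array (-1.40 ± 0.05, adjusted p = 1.92e-04). ins.S, the other insulin gene copy, read 23.5, 39.4, 36.1 and 22.1 in Ptf1a explants, against 82.2, 98.3, 108.2 and 96.4 in GFP explants, again without overlap (-1.29 ± 0.08, adjusted p = 6.84e-04). Both fell in all 4 pairs, by 1.40, 1.32, 1.33 and 1.54 on the log2 scale for ins.L. In this bulk tissue, fewer insulin cells and less insulin RNA per cell cannot be told apart.

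Somatostatin, sst.1.L, read 41.9, 87.6, 36.2 and 51.9 in Ptf1a explants, against 19.5, 33.3, 19.4 and 8.6 in GFP explants. Every Ptf1a array exceeded every GFP array, although Ptf1a replicate 3 was only just above GFP replicate 2 (0.95 ± 0.14, adjusted p = 0.00621; not past the threshold without the pairing). neurod1.S, a basic helix-loop-helix factor of islet cells and neurons, read 21.3, 30.9, 14 and 31.3 in Ptf1a explants, against 2.8, 8, 1.2 and 5.3 in GFP explants. These are dim values with no overlap (0.98 ± 0.06, adjusted p = 6.83e-04), and neurod1.L behaved likewise (0.66 ± 0.08). The prohormone-processing gene cpe.S rose (0.52 ± 0.09), whereas tm4sf4.L (-0.91 ± 0.19) and the secretogranin gene scg2.S (-0.26 ± 0.07) fell. The islet factor genes isl1.S (0.09), pax6.L (0.01) and insm1.L (0.07) and the granule gene chga.S (0.07) did not pass. Leaving out pair 2 left 2 genes of the list lower.

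**Figure D2:**
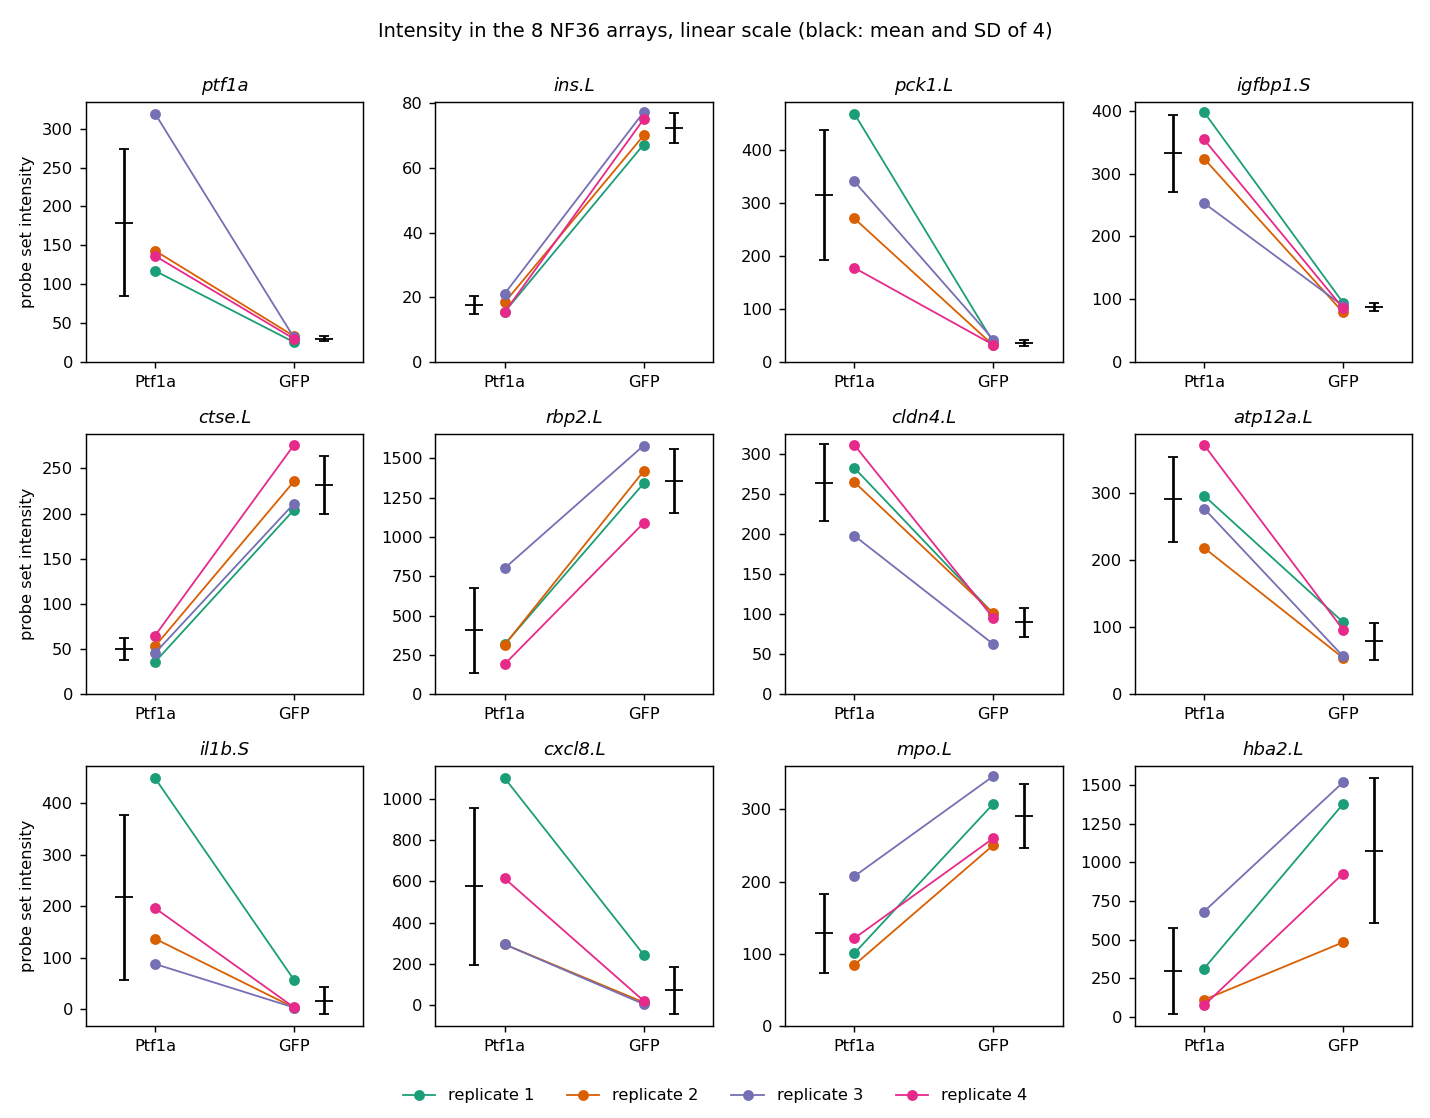
Intensity of 12 genes on the 8 NF36 arrays, linear scale, Ptf1a left and GFP right, with pairs joined and the mean and SD of 4 arrays in black. ins.L and ctse.L were lower and pck1.L, cldn4.L and il1b.S higher in every pair; replicate 1 was high for il1b.S and cxcl8.L in both groups, and hba2.L overlapped between groups.

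Transcription factor genes of pancreas and endoderm went both ways, with 7 higher and 7 lower of 31 (median 0.00). sox9.S, a factor of pancreas progenitors and of several other tissues, read 175.7, 214.1, 144.4 and 167.8 in Ptf1a explants, against 72.4, 78.8, 53.4 and 62.9 in GFP explants. The groups did not overlap (1.21 ± 0.04, adjusted p = 1.92e-04), and sox9.L rose as well (0.84 ± 0.06). nkx6-2.L, a homeodomain factor, read 71.1, 77.5, 72.1 and 55.3 in Ptf1a explants, against 112.6, 138.3, 133.3 and 133.6 in GFP explants, lower in every Ptf1a array (-0.78 ± 0.08, adjusted p = 0.00224). A second probe set of nkx6-2.L fell by 0.23. cebpa.L, a factor of liver and of myeloid cells, fell (-0.70 ± 0.06), as did cebpa.S (-0.37 ± 0.04). meis2.L (0.33 ± 0.04), tbx3.S (0.41 ± 0.08), prox1.L (0.29 ± 0.06), cebpb.L (0.59 ± 0.14) and gata4.S (0.34 ± 0.07, lost without pair 2, 3 or 4) were higher. The genes mnx1.L (0.25), hhex.L (0.02) and sox17a.L (-0.08) did not pass. Without the pairing 3 genes of the list were higher and 2 lower, and without pair 2 there were 3 higher.

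Many genes of glucose synthesis and of the insulin response rose, while 11 of 25 did not pass. Insulin normally represses the enzymes that release glucose and the binding protein igfbp1. Whether the rise of these genes was linked to the fall of insulin RNA was not tested. Of 25 measured genes 14 were higher and none lower (at an unadjusted p under 0.05, limma gave 17 and 1; median 0.24), 12 of them with no overlap between the groups, and 10 were higher without the pairing. pck1.L, phosphoenolpyruvate carboxykinase, read 469.1, 271.1, 341 and 177.8 in Ptf1a explants, against 37.4, 31.4, 42.4 and 32.4 in GFP explants. Every Ptf1a array was far above every GFP array (2.60 ± 0.17, adjusted p = 7.14e-04). pck1.S, its other copy, read 438.9, 236.5, 346.1 and 240.6 in Ptf1a explants, against 91.4, 57, 86.3 and 58.3 in GFP explants (1.87 ± 0.06, adjusted p = 1.92e-04). For both copies Ptf1a replicate 1 was the highest array.

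Glucose-6-phosphatase, which releases free glucose, rose in 3 of its measured genes: g6pc1.1.L read 584.9, 288.1, 341 and 191.5 in Ptf1a explants, against 114.2, 78.2, 62.2 and 35.7 in GFP explants (2.02 ± 0.09, adjusted p = 3.04e-04), and the changes of g6pc1.1.S and g6pc1.2.L were 1.25 ± 0.10 and 1.68 ± 0.22. The groups did not overlap for g6pc1.1.L. igfbp1.S, which binds insulin-like growth factors, read 398, 323.9, 253 and 354.4 in Ptf1a explants, against 94.6, 79.2, 89.4 and 86 in GFP explants, with 4 close GFP values (1.74 ± 0.10, adjusted p = 5.10e-04). igfbp1.L (1.25 ± 0.09), the pyruvate dehydrogenase kinase genes pdk4.L (1.33 ± 0.10) and pdk4.S (1.05 ± 0.08), and the stress-response gene sesn1.L (1.05 ± 0.07) rose as well. fbp1.L, fructose bisphosphatase, changed by -0.02, the glycogen synthase gene gys2.L by -0.10 and the fasting factor foxo3.L by -0.03, none past the threshold.

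Amino acid, lipid and xenobiotic metabolism genes split, with 11 of 53 higher and 16 lower (median -0.07). Higher ones included sds.L, serine dehydratase, which read 107, 46, 62.5 and 50.2 in Ptf1a explants, against 11.2, 5.2, 8 and 9 in GFP explants (1.71 ± 0.12, adjusted p = 8.21e-04). arg2.S, an arginase, read 75.6, 49.9, 53.9 and 67.1 in Ptf1a explants, against 15.1, 7.6, 11.8 and 12.2 in GFP explants (1.48 ± 0.05, adjusted p = 1.92e-04). Neither gene overlapped between the groups. The glutamine synthetase-like gene glul-like.1.L (1.85 ± 0.11), the antizyme inhibitor gene azin2.S (2.05 ± 0.20) and the glutathione transferase gene gstp1.L (1.28 ± 0.13, with 3 of its 5 probe sets past the threshold) rose too. A further glutathione transferase gene, gsta1.L, moved the other way, at 51.9, 54.7, 66.8 and 41 in Ptf1a explants, against 167.9, 286.8, 195.7 and 195.4 in GFP explants (-1.70 ± 0.13, adjusted p = 9.65e-04). The urea cycle gene otc.S (-1.04 ± 0.11), adhfe1.S (-1.56 ± 0.08) and the sterol synthesis gene hmgcs1.S (-0.58 ± 0.06) fell. Without the pairing 5 genes of this list were higher and 5 lower, and 7 were higher without pair 2 or pair 4.

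Stomach and intestine markers fell in 10 of 18 cases, with 1 higher (median -0.33). Their summed intensity was 3148 to 4872 in Ptf1a explants, against 6268 to 7589 in GFP explants. rbp2.L, a retinol-binding protein of enterocytes, read 316.5, 314, 801.4 and 190.4 in Ptf1a explants, against 1340.7, 1419, 1581.9 and 1088.9 in GFP explants. Ptf1a replicate 3 was the highest Ptf1a array and still below every GFP array (-1.88 ± 0.22, adjusted p = 0.00296). The intestinal fatty acid-binding protein gene fabp2.L read 1057.5, 642.7, 889 and 529.8 in Ptf1a explants, against 1924.1, 1883.3, 1731.1 and 1401.4 in GFP explants (-1.18 ± 0.12, adjusted p = 0.00202), and its copy fabp2.S fell by 1.75 with an overlap of 1 Ptf1a array. Villin, vil1.S (-0.96 ± 0.09), cndp2.L (-0.93 ± 0.12), the gut factors cdx2.L (-0.44 ± 0.10) and sox2.L (-0.53 ± 0.12) and the endoderm gene darmin.L (-0.38 ± 0.10) fell as well. ada.S, adenosine deaminase, was the gene that was higher (0.52 ± 0.05). The gastric proton pump genes atp4a.S and atp4b.L changed by 0.00 and -0.05 and did not pass. Of the list 3 genes were lower without the pairing and 6 without pair 4.

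Outside that list, the gastric protease gene ctse.L, cathepsin E, was among the largest falls. It read 35.5, 52.9, 45.4 and 64.7 in Ptf1a explants, against 204.1, 235.6, 211 and 275.9 in GFP explants, far apart in all 4 pairs (-1.93 ± 0.05, adjusted p = 1.92e-04). The tight junction gene cldn18.L, typical of stomach and lung epithelium in mammals, read 0.3, 0.6, 5.1 and 0.6 in Ptf1a explants, against 16.5, 44.1, 35.9 and 21.9 in GFP explants. Of the Ptf1a arrays 3 read under 1 and replicate 3 read 5.1 (-1.34 ± 0.13, adjusted p = 0.00193). slc5a5.L, the sodium iodide symporter, read 21.9, 4.1, 9.9 and 4.1 in Ptf1a explants, against 78.2, 37.4, 53.9 and 34.3 in GFP explants (-1.37 ± 0.04, adjusted p = 1.92e-04), also without overlap.

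Liver genes fell in 14 of 39 cases and 1 was higher (median -0.16), while 2 were lower without the pairing and 7, 7 and 8 without pair 2, 3 and 4. fgb.L, a fibrinogen chain, read 173.2, 55.7, 225.1 and 73.1 in Ptf1a explants, against 298.9, 320.6, 459.3 and 249.7 in GFP explants. No Ptf1a array reached the lowest GFP array, and Ptf1a replicates 2 and 4 were the lowest (-1.38 ± 0.23, adjusted p = 0.00868). fga.L (-1.07 ± 0.25), fgg.L (-0.79 ± 0.22), itih2.S (-0.80 ± 0.09), the prothrombin gene f2.S (-0.74 ± 0.06), the coagulation factor gene f9.S (-0.67 ± 0.11) and the protease inhibitor gene serpina1.S (-0.38 ± 0.06) were also lower. f7.S, a coagulation factor, was the gene that was higher (0.32 ± 0.08). The transthyretin gene ttr.L (-0.29), apoa1.L (-0.11), the transferrin gene tf.L (0.20) and the complement gene c3.L (-0.04) did not pass.

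Epidermis genes rose in 22 of 28 cases with none lower (in limma at an unadjusted p under 0.05, 22 and 1; median 0.75), 18 of them without overlap, and 14 were higher without the pairing. No member was at 0 on all arrays, and their summed intensity was 10692 to 12929 in Ptf1a explants, against 5455 to 7676 in GFP explants. cldn4.L, a tight junction claudin, read 282.1, 264.5, 197.6 and 310.8 in Ptf1a explants, against 100.3, 100.6, 62.3 and 95 in GFP explants (1.41 ± 0.06, adjusted p = 2.31e-04). The larval keratin gene krt12.4.S read 1713.6, 1835.4, 2019.5 and 2113.5 in Ptf1a explants, against 1044.4, 684.5, 903.1 and 1067.5 in GFP explants (1.06 ± 0.11, adjusted p = 0.00206). In both cases the lowest Ptf1a array was well above the highest GFP array, though another of 3 probe sets of cldn4.L changed by 0.31 and did not pass.

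The proton pump gene atp12a.L (1.72 ± 0.10), the envelope genes evpl.L (1.36 ± 0.08) and ppl.L (0.88 ± 0.10), krt70.S (1.55 ± 0.21), krt12.5.S (1.33 ± 0.12) and the epidermal factor grhl3.S (0.93 ± 0.09) rose too. Plakophilin genes pkp3.L (0.02) and pkp3.S (0.12) and the simple keratin krt8.1.S (-0.02) did not pass. The list median was 0.39, 0.75, 0.94 and 0.84 in pairs 1 to 4. Epidermis is not a derivative of endoderm, and the share of these RNAs that came from attached skin was not tested.

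Markers of the other cells of larval skin moved with them. Of 21 genes of multiciliated cells and ionocytes 13 were higher and 2 lower (median 0.34), and 6 were higher without the pairing. The ionocyte proton pump subunit gene atp6v1b1.L read 68.8, 48.6, 100.1 and 111.4 in Ptf1a explants, against 30, 15.6, 16.6 and 33 in GFP explants (1.28 ± 0.15, adjusted p = 0.00296). The groups did not overlap, and GFP replicates 1 and 4 were higher than 2 and 3. atp6v0d2.L (1.13 ± 0.13), the carbonic anhydrase gene ca12.L (1.00 ± 0.11), the ionocyte factor foxi1.L (0.76 ± 0.12), the cilia factor foxj1.S (0.54 ± 0.07), the cilia dynein gene dnai1.L (0.33 ± 0.04) and the tektin genes tekt2.S (0.58 ± 0.05) and tekt3.L (0.64 ± 0.06) rose. The 2 lower genes, slc4a1.L and ca2.L, are also red cell genes. In the hatching and cement gland list 2 of 7 were higher and 1 lower (median 0.04). agr2.L, a secretory-cell gene expressed in the cement gland, read 85.3, 73.8, 67 and 100.4 in Ptf1a explants, against 25, 14.7, 12.1 and 24.3 in GFP explants (1.49 ± 0.06, adjusted p = 1.92e-04), with no overlap, agr2.S rose by 0.50, and pitx1.L fell by 0.55.

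**Figure D3:**
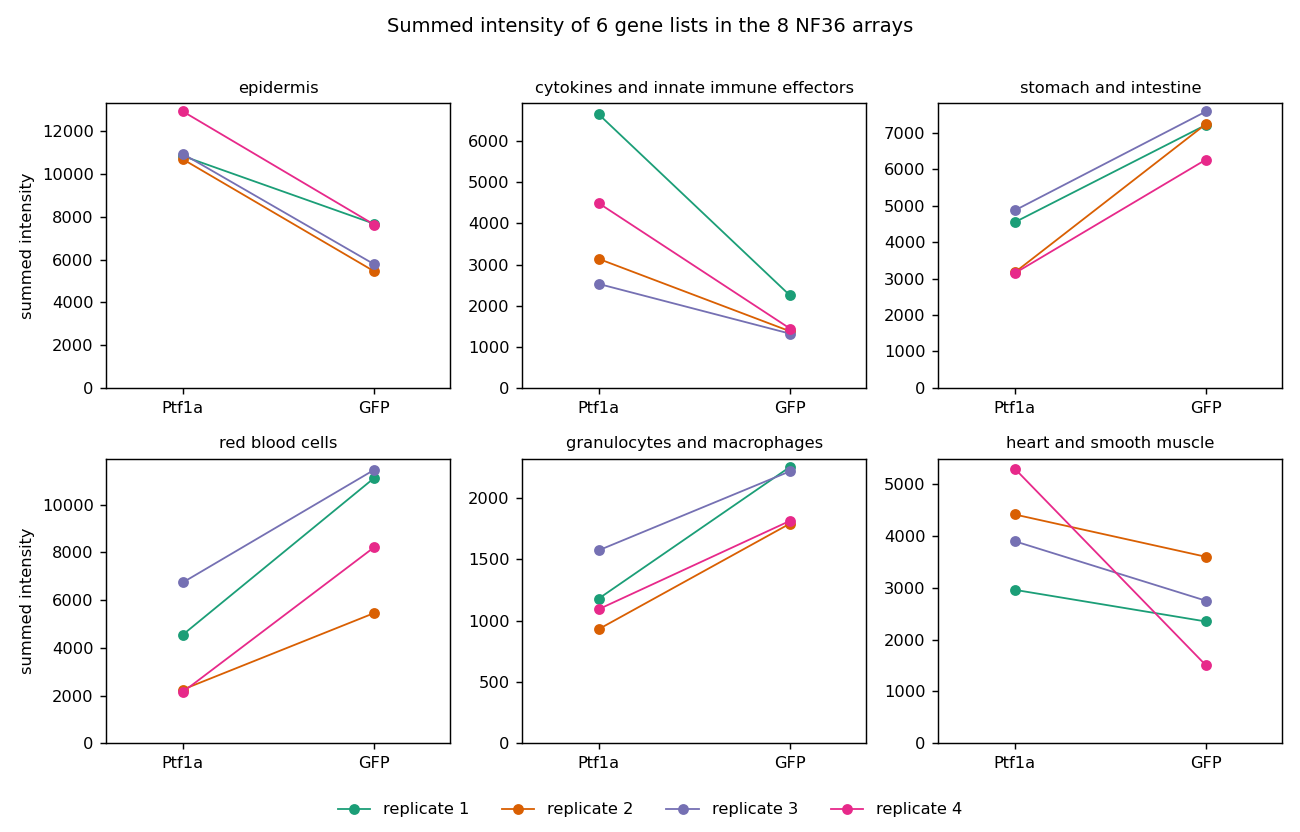
Summed intensity of 6 gene lists on the 8 NF36 arrays, Ptf1a left and GFP right, with pairs joined. Epidermis sums were 10692 to 12929 in Ptf1a explants and 5455 to 7676 in GFP explants, the sums of stomach and intestine and of granulocyte genes were lower in all Ptf1a arrays, and red cell and heart sums overlapped.

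In the Notch pathway, by which neighbouring cells restrain each other's differentiation, 11 of 26 genes were higher and 2 lower (median 0.15), with 7 higher without the pairing and 11 higher without any 1 pair. The receptor gene notch1.S read 86.7, 111.2, 94.9 and 97.4 in Ptf1a explants, against 62.5, 65.6, 63.6 and 64.4 in GFP explants (0.50 ± 0.05, adjusted p = 0.00222). The ligand gene jag1.L read 67, 67.6, 59.8 and 72.1 in Ptf1a explants, against 48.9, 41.6, 35.6 and 42.3 in GFP explants (0.51 ± 0.05, adjusted p = 0.00214). Both stayed apart between the groups. The target genes hey1.S (1.06 ± 0.07), hes5.2.L (0.62 ± 0.07), hes5.1.L (0.63 ± 0.10), hes4.S (0.56 ± 0.06) and hes4.L (0.44 ± 0.04) and the modifier lfng.S (0.57 ± 0.07) rose. hes1.L (-0.39 ± 0.06) and hes1.S (-0.30 ± 0.05) were the 2 that fell. dll1.L, the ligand, changed by -0.03 and rbpj.S, the DNA-binding partner of both Notch and Ptf1a, by 0.08, neither past the threshold.

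The list of proneural and neural progenitor factors had 16 of 34 genes higher and 2 lower (median 0.22). Of these 34, 18 had means below 16 in both groups, and 9 were higher without the pairing. Not every member is particular to neural tissue, so these counts are not of neural progenitors alone. The transcription factor genes tfap2a.S, at 53.2, 61.7, 45.5 and 83.6 in Ptf1a explants, against 24.8, 21.5, 20.2 and 24.8 in GFP explants, and dlx3.S (0.92 ± 0.12) rose, with tfap2a.L (0.80 ± 0.08), dlx3.L (0.73 ± 0.09) and dlx5.L (0.77 ± 0.06), and these factors also act in epidermis. The tfap2a.S values did not overlap (0.97 ± 0.09, adjusted p = 0.00188). kirrel2.L, a direct target of Ptf1a in the mouse nervous system, read 45.2, 79.3, 81.8 and 87.2 in Ptf1a explants, against 24.6, 30.4, 28.4 and 34.4 in GFP explants, again apart (0.95 ± 0.09, adjusted p = 0.00181). ebf2.S (0.73 ± 0.13), ebf3.L (0.57 ± 0.07), pax3.L (0.67 ± 0.08) and sox11.S (0.36 ± 0.05) were higher, while neurog2.S (0.08), pax6.L (0.01) and lhx1.L (-0.01) did not pass.

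Neuronal genes were higher in 11 of 43 cases and lower in 3 (median 0.19), with 23 below 16 in both groups and 5 higher without the pairing. Those lower were 1 without pair 1, 2 or 4. tubb2b.S, a tubulin of neurons and other cells, read 345.1, 341.5, 266.5 and 337.6 in Ptf1a explants, against 199.8, 201.4, 190.3 and 197.6 in GFP explants (0.66 ± 0.06, adjusted p = 0.00161). The neuronal filament gene prph.L read 173.3, 122.2, 108.3 and 86.6 in Ptf1a explants, against 57.2, 55.7, 37.4 and 38.9 in GFP explants (1.11 ± 0.08, adjusted p = 0.00103). Every Ptf1a array was above every GFP array for both. elavl4.L (0.82 ± 0.14), dpysl3.L (0.57 ± 0.07), syt1.L (0.55 ± 0.08) and elavl3.L (0.42 ± 0.05) were higher too. The genes named here all rose, but 29 of the 43 did not pass. Changes over the list ran from -0.38 to 1.12. The list median was 0.50 in pair 1, against 0.04 to 0.11 in the other pairs.

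**Figure D4:**
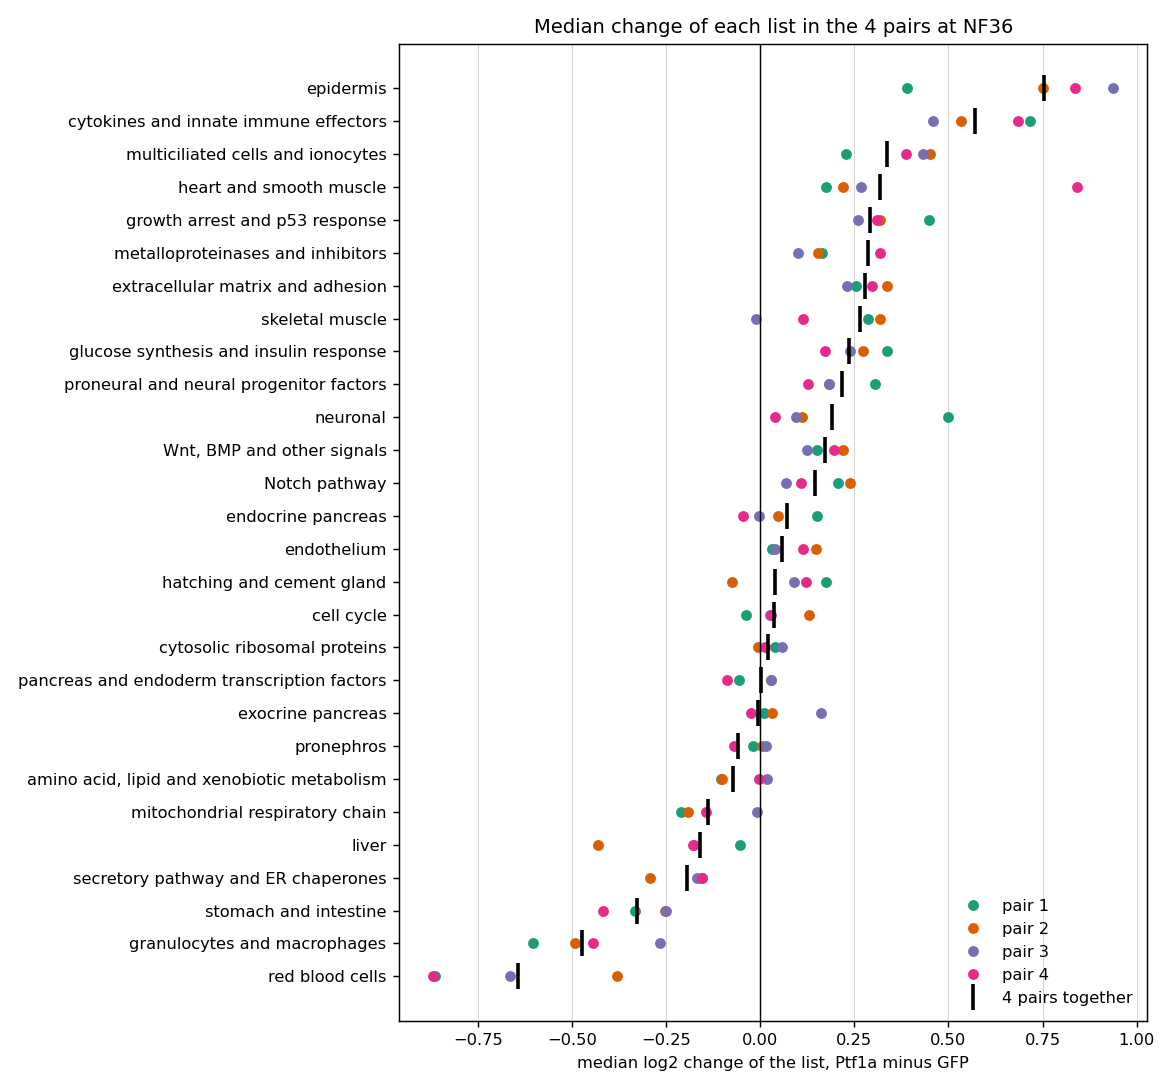
Median log2 change, Ptf1a minus GFP, of each gene list in pairs 1 to 4 (coloured points) and over the 4 pairs together (black marks). Epidermis medians lay between 0.39 and 0.94 and red cell medians between -0.87 and -0.38, while the neuronal median was 0.50 in pair 1 and the heart and smooth muscle median 0.84 in pair 4, away from the other pairs.

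Signalling genes were higher in 34 of 72 cases and lower in 6 (median 0.17), with 11 higher without the pairing and 21 and 22 higher without pair 2 and pair 4. Among its BMP ligand genes, picked out after their values were seen, bmp4.S read 89, 107.9, 89.8 and 120.1 in Ptf1a explants, against 52.6, 55.3, 48.9 and 39.3 in GFP explants (0.85 ± 0.11, adjusted p = 0.00395), with no overlap, and bmp4.L (0.70 ± 0.09), bmp2.S (0.69 ± 0.05), bmp2.L (0.29 ± 0.05) and bmp7.1.L (0.65 ± 0.10) were higher as well, while bmp3.L was lower (-0.33 ± 0.06). Of genes known to respond to BMP signals, smad6.S (0.66 ± 0.07), id2.S (0.47 ± 0.05), id3.L (0.37 ± 0.06), smad7.L (0.44 ± 0.08) and bambi.L (0.51 ± 0.13) were higher. The growth factor gene fgf8.L read 85.6, 135.5, 71.6 and 114.7 in Ptf1a explants, against 28.6, 47, 36.4 and 31.8 in GFP explants (1.16 ± 0.11, adjusted p = 0.0017), but another probe set of it changed by 0.05 and did not pass. Among secreted Wnt inhibitors dkk1.S (0.55 ± 0.05) and sfrp2.S (0.88 ± 0.11) were higher, and frzb.S (-0.53 ± 0.07) and sfrp5.S (-0.27 ± 0.05) lower. The Wnt target axin2.L changed by 0.01 and the hedgehog ligand shh.L by -0.06, neither past the threshold.

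Extracellular matrix and adhesion genes were higher in 27 of 46 cases and lower in 2 (median 0.28), with 9 and 1 without the pairing and 17 higher without pair 2 or pair 4. The matrix protein gene sparc.S read 577.4, 642, 737.4 and 706.1 in Ptf1a explants, against 410.6, 408.4, 513.6 and 470.7 in GFP explants (0.55 ± 0.04, adjusted p = 0.00119). Its copy sparc.L read 289.1, 784.1, 856.8 and 722.6 in Ptf1a explants, against 160.6, 533.8, 540.2 and 449.5 in GFP explants, with replicate 1 the lowest of each group and overlapping groups, but a rise in every pair (0.66 ± 0.05, adjusted p = 0.00104). The junction gene ocln.S (0.75 ± 0.06), the cadherin gene cdh2.S (0.60 ± 0.06) and the collagen gene col9a1.L (0.61 ± 0.06) rose as well. The pronephros list, for a neighbouring organ, had 2 of 8 higher and 1 lower (median -0.06). Those were pax2.L (0.30 ± 0.05, with 2 of its 5 probe sets past the threshold), the nephrin gene nphs1.S (0.44 ± 0.11, lost without pair 2, 3 or 4) and the endocytic receptor gene lrp2.L (-0.51 ± 0.13, lost without pair 1, 2 or 4).

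Heart and smooth muscle genes passed in 7 cases higher and 1 lower of 40 (median 0.32), with 3 higher without the pairing. The 7 were bmp4.S, bmp4.L, nkx2-3.L, nkx2-3.S, nkx2-5.S, gata4.S and hand1.L, which other tissues of this region also express, and 2 passed without pair 2 or pair 3. The lower gene was smooth muscle myosin, myh11.S (-0.19 ± 0.05). No cardiac sarcomere gene passed. myh6.S, cardiac myosin, read 185.8, 325.1, 299.6 and 481.4 in Ptf1a explants, against 121.8, 256.7, 185.2 and 34.9 in GFP explants. GFP replicate 4 was far below the other GFP arrays, and the pair changes were 0.55, 0.32, 0.65 and 3.29 (over all pairs 1.20 ± 0.48, adjusted p = 0.119). Without pair 4 the change of myh6.S was 0.51 (adjusted p = 0.0166), and those of tnni3.S, tnnc1.L and mylc2a were 0.47, 0.57 and 0.76 with adjusted p of 0.0200, 0.00959 and 0.0142. Then 16 genes of the list were higher, against 10 without pair 1. In the skeletal muscle list 7 of 45 were higher and 3 lower (median 0.27), with 3 and 2 higher without pair 1 and pair 2. Calls either way made up 20% of the heart and smooth muscle list and 22.2% of the skeletal muscle list. Both shares were below the 26.5% over all genes. The myogenic factor myog.S fell, at 31.7, 22.5, 41 and 17.1 in Ptf1a explants, against 76.5, 57.5, 62.9 and 49 in GFP explants (-0.83 ± 0.09, adjusted p = 0.0025), with no overlap, as did myog.L (-0.51 ± 0.05) and myod1.S (-0.32 ± 0.05), whereas pgam2.L (1.05 ± 0.14), tpm1.L (1.05 ± 0.27) and tpm2.L (0.70 ± 0.17) were higher.

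Red blood cell genes were lower in 24 of 30 cases and none was higher (25 and 2 at an unadjusted p under 0.05 in limma; median -0.64), yet only 3 passed without the pairing. Their summed intensity was 2149 to 6740 in Ptf1a explants, against 5455 to 11456 in GFP explants, so the groups overlapped, while in each pair the Ptf1a array was lower. The globin gene hba2.L read 312.6, 110.8, 681.4 and 74.5 in Ptf1a explants, against 1376.2, 482.4, 1516.4 and 926.5 in GFP explants. Ptf1a replicate 3 exceeded GFP replicate 2, but every Ptf1a array was below its partner (-2.14 ± 0.32, adjusted p = 0.00599). urod.L, of haem synthesis, read 189.7, 107.2, 164.7 and 98.8 in Ptf1a explants, against 450.9, 224.1, 284.6 and 275.7 in GFP explants, without overlap (-1.06 ± 0.10, adjusted p = 0.00166). The other globin genes hbz.L (-1.05 ± 0.11), hbg2.L (-0.95 ± 0.09), hbe1.L (-1.93 ± 0.28), hba4.S (-1.81 ± 0.27), hbd.S (-1.64 ± 0.27), hba3.L (-1.54 ± 0.24) and hba-l5.L (-1.58 ± 0.29, lost without pair 2) fell with it, as did alas2.L of haem synthesis (-1.13 ± 0.07), the red cell membrane gene ank1.S (-0.79 ± 0.09) and the red cell factor genes gata1.L (-0.71 ± 0.10) and gata1.S (-0.51 ± 0.05). Globin genes are near copies of each other, and whether their probe sets tell them apart was not tested. The amount of blood in each explant was not tested either.

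Genes of granulocytes and macrophages were lower in 18 of 26 cases, 14 of them without overlap, and 1, spib.L (0.17 ± 0.04), was higher (median -0.47), though in no fit that left out a pair. Without the pairing 8 were lower. Myeloperoxidase, mpo.L, read 100.9, 84.8, 207.5 and 121.7 in Ptf1a explants, against 307.8, 250.6, 346.1 and 260.1 in GFP explants (-1.14 ± 0.13, adjusted p = 0.00277). The granule protease gene prtn3.L read 9.9, 11.2, 37.5 and 5.1 in Ptf1a explants, against 76.2, 54.2, 81.6 and 40.1 in GFP explants (-1.37 ± 0.14, adjusted p = 0.00211). In each, Ptf1a replicate 3 was the highest Ptf1a array and stayed below all GFP arrays. epx.L (-1.18 ± 0.14), the protease gene prss57.S (-0.65 ± 0.07), the leukocyte genes lcp1.S (-0.85 ± 0.11) and rac2.L (-0.73 ± 0.08) and csf3r.L (-0.40 ± 0.05) fell too, while the lysozyme gene lyz.L (-0.02) and the oxidase subunit cyba.L (0.02) did not pass. The summed level of the list was 932 to 1575 in Ptf1a explants and 1793 to 2255 in GFP explants. Of 12 endothelial genes 4 were higher (median 0.06), and none without the pairing in limma. Without pair 1, 2 and 4 there were 2, 1 and 2. The genes were sox7.L (0.26 ± 0.04), cldn5.L (0.94 ± 0.19), fli1.S (0.29 ± 0.06) and aplnr.L (0.18 ± 0.05), and aplnr.L passed in no fit that left out a pair.

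Cytokines and innate immune effectors rose in 28 of 38 cases with 1 lower (median 0.57), although leukocyte genes were lower, and 18 were higher without the pairing. il1b.S, the cytokine interleukin 1 beta, read 448.8, 137, 87.9 and 196.4 in Ptf1a explants, against 57.3, 3.3, 3.4 and 3.8 in GFP explants. GFP replicate 1 was far above the other GFP arrays, and Ptf1a replicate 1 was the highest array (2.87 ± 0.15, adjusted p = 4.74e-04). cxcl8.L, a chemokine that attracts neutrophils, read 1098.9, 295.1, 295 and 613.6 in Ptf1a explants, against 245.3, 14.5, 6.3 and 22 in GFP explants, again with replicate 1 highest in each group (3.32 ± 0.30, adjusted p = 0.00154). Excluding pair 1, all other GFP values of cxcl8.L were 22 or less and all other Ptf1a values 295 or more.

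Among the largest rises outside the list, replicate 1 was likewise highest in each group for several genes. They included phyhdlb.L, ch25h.L, satpb.L, mmp8.L, g6pc1.1.L, pck1.S and glul-like.1.L. phyhdlb.L read 812.4, 107.4, 50 and 393.6 in Ptf1a explants, against 59.7, 2.7, 1.6 and 6.2 in GFP explants (3.07 ± 0.34, adjusted p = 0.00254). ch25h.L, cholesterol 25-hydroxylase, read 266.4, 55.2, 51.7 and 118.9 in Ptf1a explants, against 43.8, 3.2, 2.3 and 3.3 in GFP explants (2.21 ± 0.15, adjusted p = 7.84e-04). GFP replicates 2 to 4 were near 0 for both, and satpb.L rose as well (2.76 ± 0.28).

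The transcription factor gene irf1.L read 370.6, 150.6, 125.5 and 207.5 in Ptf1a explants, against 77.8, 32.3, 31.3 and 41.7 in GFP explants (1.84 ± 0.08, adjusted p = 2.92e-04). acod1lb.L (3.47 ± 0.27) and tlrs5.L (2.91 ± 0.25) had larger changes, though another probe set of acod1lb.L changed by -0.04. nfkbia.S (1.12 ± 0.09) and tnfaip3.S (1.35 ± 0.09), each an inhibitor of NF-kB signalling, rose with the pairing but did not pass without it (adjusted p = 0.155 and 0.174), and the related gene nfkbie.L changed by 0.07 and did not pass. Also higher were prostaglandin synthase ptgs2.S (1.10 ± 0.08), the feedback inhibitor socs3.S (1.11 ± 0.16), the immediate-early genes junb.L (1.60 ± 0.17) and fos.S (0.88 ± 0.17), and myd88.L (0.55 ± 0.06). The receptor cxcr4.L fell (-0.49 ± 0.08). nfkb1.L (0.12), relb.S (0.15) and socs1.L (0.05) did not pass. The summed level of the list was 2529 to 6654 in Ptf1a explants and 1319 to 2249 in GFP explants.

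Metalloproteinases and their inhibitors were higher in 9 of 21 cases and lower in 2 (median 0.29), with 3 higher without the pairing. mmp8.L, a collagenase, read 870.4, 105.2, 55.6 and 391.6 in Ptf1a explants, against 56, 0.3, 0.1 and 0.5 in GFP explants. GFP replicates 2 to 4 were close to 0, and Ptf1a replicate 3 lay just below GFP replicate 1 (3.32 ± 0.36, adjusted p = 0.00248). The collagenase gene mmp1.S read 320.6, 124, 69.6 and 330.8 in Ptf1a explants, against 48.8, 7.7, 13.7 and 7.4 in GFP explants (2.59 ± 0.33, adjusted p = 0.00391). mmp3.L (1.35 ± 0.15) and mmp28.L (0.41 ± 0.05) rose, and mmp9.1.S (-0.75 ± 0.10) fell. The 9 higher members include serpine2.L (1.22 ± 0.08) and serpine2.S (0.71 ± 0.07). Those encode an inhibitor of serine proteases rather than of metalloproteinases.

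Growth arrest and p53 response genes were higher in 18 of 28 cases with none lower (21 and 1 at an unadjusted p under 0.05 in limma; median 0.29), and 6 without the pairing. gadd45g.S read 105.8, 71.3, 63.8 and 95.9 in Ptf1a explants, against 42.7, 38.3, 32.3 and 33.5 in GFP explants (0.91 ± 0.09, adjusted p = 0.00202), with no overlap. gadd45g.L (0.92 ± 0.14), btg2.S (0.81 ± 0.13), btg1.L (0.58 ± 0.07), ccng2.L (0.47 ± 0.06) and the cyclin-dependent kinase inhibitor gene cdkn1a.L (0.34 ± 0.05) rose with it. mdm4.S (0.03) and bax.S (0.05) did not pass. Cell cycle genes were higher in 6 of 89 cases and lower in 2 (median 0.04), below the shares over all genes. In limma none passed without the pairing, and 1 or 2 were higher without any 1 pair. The mitotic kinesin gene kif11.L was 0.39 ± 0.05 higher, and of the fits without 1 pair ccnd1.L (0.20 ± 0.04) passed only in that without pair 3. The 2 lower genes were cks2.L (-0.24 ± 0.05) and gins2.L (-0.19 ± 0.04), of which gins2.L passed in no fit that left out a pair.

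Genes of the secretory pathway were lower in 45 of 81 cases and higher in 1, by small amounts (median -0.20), with 4 lower without the pairing and 19, 24 and 27 without pair 2, 3 and 4. The gene that was higher, creb3l2.L, passed in no fit that left out a pair. The chaperone gene calr.L read 701.4, 585.9, 768.1 and 694.4 in Ptf1a explants, against 1000.3, 855.1, 976.2 and 933.1 in GFP explants (-0.45 ± 0.05, adjusted p = 0.00238). hsp90b1.L, a chaperone of the endoplasmic reticulum, read 795.3, 608.5, 936.2 and 850.7 in Ptf1a explants, against 1142.3, 1202.7, 1453.8 and 1194.3 in GFP explants (-0.65 ± 0.08, adjusted p = 0.00398). All Ptf1a arrays were below all GFP arrays for both. edem1.L (-0.43 ± 0.05), lman1.S (-0.41 ± 0.06), dnajb9.L (-0.33 ± 0.04) and rpn1.S (-0.31 ± 0.04), which serve folding, transport and glycosylation in the endoplasmic reticulum, were lower too. Respiratory chain genes were lower in 16 of 68 cases (median -0.14), and in 5, 4, 23 and 2 without pair 1, 2, 3 and 4, and in 1 without the pairing. ndufb8.L was the member with the smallest p (-0.25 ± 0.04, adjusted p = 0.00783), and cyc1.L (-0.33 ± 0.07) was lost without pair 1 or pair 2. None of the 84 ribosomal protein genes passed in limma (median 0.02), with or without the pairing, although 1 was above 0 and 0 were below 0 with an unadjusted p under 0.05, and rps9.S (0.13 ± 0.05, adjusted p = 0.109) had the smallest p.

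The change at NF36 was set against that at NF32 in 1 model over 22251 probe sets with values at both stages. The Ptf1a effect was more positive at NF36 for 825 probe sets (3.71%) and more negative for 392 (1.76%), together 5.47%. Levels were not compared, since each stage was scaled apart and 2 chip versions are named in the series description while the identifiers are of 1. Mean intensity was 140 on NF32 arrays and 100 on NF36 arrays, so the offset of 16 shrinks changes more at NF36. Without the pairing 97 and 76 passed, and without 1 pair of either stage 444 to 859 and 179 to 382, with the fewest without NF32 replicate 3 and without NF36 replicate 4. Of the list members with values at both stages, the effect was more positive at NF36 for 16 of 36 heart and smooth muscle genes, 13 of 24 granulocyte and macrophage genes, 12 of 23 genes of glucose synthesis and insulin response, 12 of 28 epidermis genes and 11 of 21 of multiciliated cells and ionocytes. It was more negative for 19 of 43 neuronal, 7 of 33 proneural and 7 of 20 endocrine genes. A more positive effect can be a smaller fall, as for the granulocyte gene mpo.L (-3.15 at NF32 and -1.14 at NF36). It can also be a larger rise, as for the epidermis gene cldn4.L (0.21 at NF32 and 1.41 at NF36). No member passed either way among 38 cytokine and innate immune genes or 84 ribosomal genes.

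**Figure D5:**
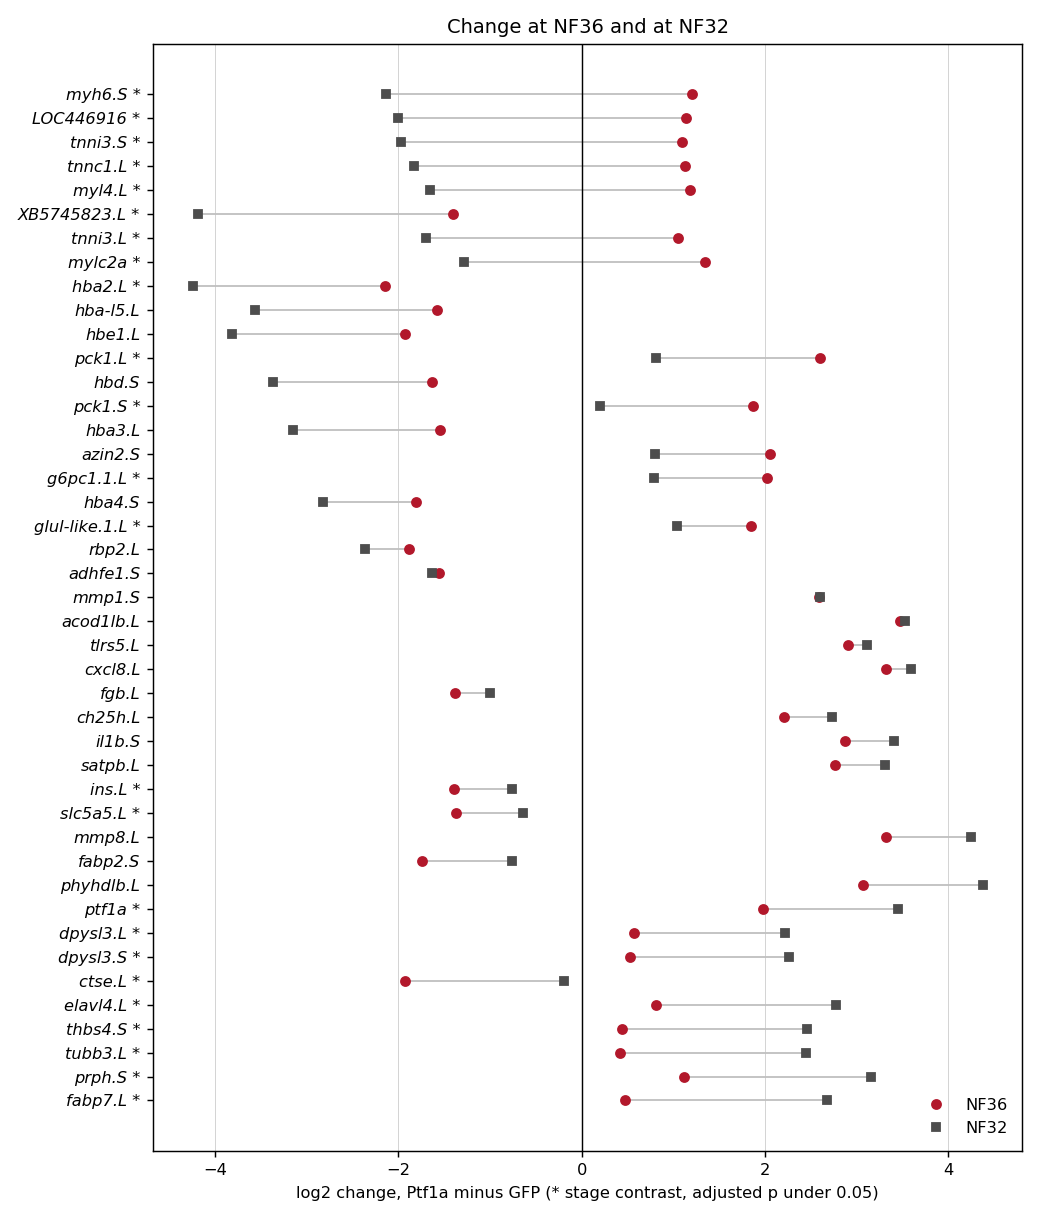
Log2 change, Ptf1a minus GFP, at NF36 (circles) and NF32 (squares) for ptf1a, the largest rises and falls at NF36 and the largest stage differences; stars mark genes past the threshold of the stage contrast. pck1.L and pck1.S changed more at NF36, neuronal genes such as tubb3.L changed more at NF32, and cardiac genes such as myh6.S were above 0 at NF36 and below 0 at NF32. The NF36 change of myh6.S did not itself pass the threshold.

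The change of ptf1a was 1.98 at NF36 and 3.45 at NF32 (difference -1.47 ± 0.35, adjusted p = 0.0484). Among genes with the largest changes at NF36, the effect was farther from 0 than at NF32 for pck1.L (difference 1.79 ± 0.35, adjusted p = 0.0234), pck1.S (1.67), g6pc1.1.L (1.23), glul-like.1.L (0.81), ctse.L (-1.73 ± 0.09, adjusted p = 5.39e-04), ins.L (-0.63) and slc5a5.L (-0.73). ctse.L changed by -1.93 at NF36 and -0.19 at NF32. Globin hba2.L changed by -2.14 at NF36 and -4.25 at NF32, a smaller fall at the later stage (difference 2.10 ± 0.47, adjusted p = 0.0378), and XB5745823.L by -1.41 at NF36 and -4.18 at NF32.

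Several neural genes had a smaller change at NF36. tubb3.L, a neuronal tubulin, changed by 0.42 at NF36 and 2.45 at NF32 (difference -2.03 ± 0.20, adjusted p = 0.00302), prph.S by 1.12 at NF36 and 3.16 at NF32, elavl4.L by 0.82 at NF36 and 2.78 at NF32, and fabp7.L, of neural progenitors, by 0.47 at NF36 and 2.68 at NF32. Cardiac genes had opposite signs: myh6.S changed by 1.20 at NF36 and -2.14 at NF32 (difference 3.34 ± 0.63, adjusted p = 0.0214) and tnnc1.L by 1.13 at NF36 and -1.83 at NF32 (difference 2.96 ± 0.51, adjusted p = 0.0157). Their NF36 changes alone did not pass over all pairs in limma (adjusted p = 0.119 and 0.0796). Without NF36 replicate 4, whose GFP array was low in cardiac genes, the differences were 2.65 for myh6.S and 2.40 for tnnc1.L, each with an adjusted p of 2.19e-04. For acod1lb.L, mmp1.S and cxcl8.L the differences were -0.06, -0.01 and -0.27, with SEs of 0.48, 0.50 and 0.64, and did not pass.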

How the data were processed

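RNA of pooled anterior endoderm explants was measured on single-channel Affymetrix arrays. The authors deposited an intensity for each probe set and array on a linear scale. PLIER, an Affymetrix summary method, is named in the submitters' processing notes, but its role and version, the scaling and the genome build are not stated there. Per the labels, NF36 RNA went onto the older of a pair of chip versions, while the identifiers in the deposited intensity table belong to the newer one, and this was not settled.

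The deposited intensities were taken as log2(intensity + 16) with no further normalization. limma 3.58.1 under R 4.3.3 (lmFit, eBayes, 2-sided) compared Ptf1a with GFP arrays of NF36 with the replicate number as a block, and p-values were adjusted by the Benjamini-Hochberg method over all 23614 probe sets. The labels say that control and experimental samples came from the same batch of embryos. That arrays with the same number share a batch was inferred. As a check, deviations from the group means correlated between same-numbered arrays with Pearson's r of 0.765, 0.670, 0.717 and 0.639 across probe sets, and at 0.02 or below in every other pairing. Deviations sum to 0 within a group, so high values between same-numbered arrays push the other values down. What same-numbered arrays shared was not tested. The stage contrast used 1 fit over the 22251 shared probe sets with all 7 pairs as blocks. Figures were drawn with matplotlib 3.10.9.

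The annotation gave 1 symbol to 12581 probe sets, several to 237 and none to 10796. Of the annotated probe sets with 1 symbol, 12716 of 12795 over both stages were matched to RefSeq by gene ID, and no symbol changed. The probe set with the highest mean stands for a gene. 28 gene lists were used, and the arrays, lists and tests were chosen with earlier results of these data known. Named genes are ptf1a, the 15 largest rises and falls with the same sign in 4 pairs and a higher group above the median of all probe sets, at most 6 called members per list, ordered by p (at least the 2 of smallest p), the 8 largest stage differences each way and up to 2 probe sets without a symbol per direction. Further list members were named after their values were seen. Both fits were tested on simulated data. Alternatives were no block, offsets of 1 and 64, median centring or quantile normalization, a filter at the 40th percentile of mean log2 intensity, trended robust eBayes, arrayWeights (statmod 1.5.0), for lists the mean over probe sets or the one with the smallest p, and leaving out each pair. The number of arrays limits the precision.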

Additional observations from a re-analysis of the deposited data

Results flagged for a closer look

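An array was singled out where its gap to the nearest of the other 3 arrays of its group, divided by the range of the 4, was above Dixon's critical value for 4 samples. This held in 26 of 372 groups of 4 checked (log2 values of 186 named genes), where chance gives about 1 in 20, or 18.6. Ptf1a replicate 1 stood apart for kirrel2.L (0.848), ccng2.L (0.859), sparc.L (0.841) and fabp7.L (0.875). Ptf1a replicate 2 stood apart for adhfe1.S (0.84). Ptf1a replicate 3 stood apart for tubb2b.S (0.914), alas2.L (0.855) and cldn18.L (0.929). Ptf1a replicate 4 stood apart for thbs4.S (0.878). GFP replicate 1 stood apart for acod1lb.L (0.832), mmp8.L (0.984), phyhdlb.L (0.841), il1b.S (0.981), satpb.L (0.955), ch25h.L (0.955), ebf3.L (0.854), ccng2.L (0.9) and sparc.L (0.845). GFP replicate 2 stood apart for adhfe1.S (0.831) and cel.2.S (0.834). GFP replicate 3 stood apart for sox9.L (0.867), cldn4.L (0.876) and hmgcs1.S (0.844). GFP replicate 4 stood apart for serpine2.S (0.892), mmp28.L (0.898) and ccna1.S (0.834). In GFP replicate 1, acod1lb.L, mmp8.L, phyhdlb.L, il1b.S, satpb.L and ch25h.L were all high, and the Ptf1a array of that pair was also the highest of its group for these 6 genes. All 6 changes passed the threshold whichever pair was left out. Without the pairing acod1lb.L, il1b.S and satpb.L passed in limma, while mmp8.L, phyhdlb.L and ch25h.L did not (adjusted p = 0.0552, 0.0666 and 0.0515).

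The stage contrast in limma was read here for ptf1a, the largest rises and falls at NF36 and the largest stage differences. For 24 of these genes the change at NF36 differed from that at NF32. As NF36 change minus NF32 change on the log2 scale, the difference was positive for pck1.L (1.79), g6pc1.1.L (1.23), pck1.S (1.67), glul-like.1.L (0.81), hba2.L (2.10), XB5745823.L (2.78), myh6.S (3.34), LOC446916 (3.14), tnni3.S (3.06), tnnc1.L (2.96), myl4.L (2.83), tnni3.L (2.74) and mylc2a (2.63). It was negative for ptf1a (-1.47), ctse.L (-1.73), ins.L (-0.63), slc5a5.L (-0.73), fabp7.L (-2.21), prph.S (-2.04), tubb3.L (-2.03), thbs4.S (-2.02), elavl4.L (-1.96), dpysl3.S (-1.73) and dpysl3.L (-1.64). Of these 24 calls, 11 passed without the pairing, and between 11 and 21 passed when 1 pair of either stage was left out. At offsets of 1 and 64, 16 and 19 of them passed. Other named genes passed this contrast too, among them mpo.L (difference 2.01), cldn4.L (1.20) and nkx6-2.L (-1.51). nkx6-2.L had opposite signs, at 0.74 at NF32 and -0.78 at NF36. The stages were scaled apart and cannot be told apart from the chips and batches they were run on.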

How the results depend on the processing

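With no replicate block, that is without the pairing, 848 probe sets were higher and 446 lower, 45 of them lower by at least 2-fold, and 112 list members were higher and 34 lower, against 254 and 176 with it. Of 176 named genes past the threshold 97 passed without the block and 79 did not. Leaving out 1 pair gave 1666 to 2389 probe sets higher, 1178 to 1820 lower, 178 to 229 list members higher and 103 to 145 lower. Of the 176 calls, 148 passed in all 4 such fits, 4 in 3 and 24 in 2 or fewer. Without dim probe sets 1769 were higher, fewer probe sets being tested. At least 2-fold changes depend on the offset by construction, with 660 higher and 216 lower at an offset of 1, and 69 and 24 at 64. Of the calls 53.8% were higher, against 46.0% with quantile normalization and 44.1% with median centring, which moved the median of all probe sets to -0.02. In the stage contrast 97 and 76 probe sets were more positive and more negative without the block, 522 were more positive at an offset of 64, and leaving out 1 pair of either stage gave 444 to 859 and 179 to 382. No named call changed direction under any alternative run. Among lists, 1 gene of glucose synthesis and insulin response was lower with quantile normalization and at an offset of 1, 1 red cell gene was higher with quantile normalization and without pair 2 or pair 4, 1 growth arrest gene was lower with median centring and at an offset of 64, the respiratory chain had 25 lower with median centring and 6 at an offset of 1, and the secretory pathway 26 at an offset of 1. The causes were not tested. Another probe set did not pass for ca12.L (0.41), dlx3.L (0.15), mmp28.L (0.12), lman1.S (-0.10) and gins2.L (0.05). Signal limits what can be said of exocrine, neuronal and proneural genes, of which 10 of 21, 23 of 43 and 18 of 34 had means below 16 in both groups.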

Other observations

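Genes outside the lists, named here after their values were seen, included further epithelial genes among the larger rises. upk1a.S, a uroplakin gene of surface epithelia, read 1077.9, 1138.6, 1179.6 and 1183.5 in Ptf1a explants, against 398.4, 337.8, 281.2 and 476.4 in GFP explants (1.60 ± 0.12, adjusted p = 9.05e-04), and the groups did not overlap. The uroplakin gene upk3a.L read 79.5, 105, 144.3 and 138.9 in Ptf1a explants, against 32.6, 17.5, 22 and 32 in GFP explants (1.65 ± 0.17, adjusted p = 0.00208). trim29.S (1.55 ± 0.06), wfdc2.L (1.60 ± 0.13), otogl2.L (1.44 ± 0.12) and the sodium pump subunit gene atp1b2.L (1.77 ± 0.19) were higher as well. sgk1.L, a kinase gene that hormones and stress induce, read 524.3, 437.7, 233.3 and 597.7 in Ptf1a explants, against 161.5, 110.9, 126.3 and 132.5 in GFP explants (1.57 ± 0.19, adjusted p = 0.00313). The factor cebpd.S (1.61 ± 0.10) and the metalloproteinase inhibitor gene timp-1.L (1.76 ± 0.25) rose too. So did the lactate dehydrogenase gene ldhb.S (1.37 ± 0.07) and pfkfb3.S, a regulator of glycolysis (1.27 ± 0.19).

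Lower genes outside the lists included several of lipid and bile acid metabolism. cyp8b1.1.S, a cytochrome of bile acid synthesis, read 77.7, 78.5, 133.2 and 67.2 in Ptf1a explants, against 193.1, 197.6, 333 and 153.3 in GFP explants (-1.15 ± 0.05, adjusted p = 2.62e-04). All Ptf1a arrays lay below all GFP arrays. akr1d1.S, of the same pathway, averaged 67.8 in Ptf1a explants and 161 in GFP explants (adjusted p = 0.0106), with overlapping groups. The fat absorption genes mogat2.2.L (-1.37 ± 0.17) and soat2.S (-0.95 ± 0.15), the leukotriene enzyme gene lta4h.L (-0.96 ± 0.06), and the anticoagulant gene proc.S (-0.90 ± 0.10) fell. The ribonucleotide reductase gene rrm2.1.L read 25.2, 19.4, 35.1 and 23.8 in Ptf1a explants, against 65, 62.7, 71.4 and 59.8 in GFP explants (-0.96 ± 0.07, adjusted p = 7.59e-04). Without a gene symbol, Xl2.3082.1.S1_at (1.48 ± 0.05) and Xl2.41444.1.S1_at (1.40 ± 0.05) rose and Xl2.55311.1.A1_at (-1.07 ± 0.05) and Xl2.51097.2.A1_at (-1.20 ± 0.06) fell.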
